A study of Mus musculus with 8 samples.

Results

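The proteasome genes of mouse dendritic cells were taken as every row of a gene count table whose symbol begins with Psm, followed by a letter from a to g and a number. This gave 48 genes of 23420 rows. Of these, 47 had enough reads to be tested, among 12442 tested genes in all, and Psmb11, the catalytic subunit specific to thymus epithelium, had 0 reads in all 8 libraries. Gata1, which encodes a transcription factor best known from red cell and mast cell development, was either knocked out (KO) or intact (wild type, WT). Both genotypes were sequenced without stimulation (steady state) and after LPS, the lipopolysaccharide of bacterial outer membranes. There were 4 groups with 2 libraries in each, described in the series as biological replicates. The strain, age and sex of the mice, how Gata1 was removed and in which cells, the origin of the dendritic cells, and the dose and time of LPS are not stated in the labels. Separate animals or cultures are not stated either, so the spread behind the p-values is that of these libraries and could be technical in part.

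The proteasome is the barrel-shaped protease that degrades proteins tagged with ubiquitin. Its 20S core has outer alpha rings (Psma genes) and inner beta rings (Psmb genes), of which Psmb5, Psmb6 and Psmb7 encode the constitutive catalytic subunits. Interferon signalling is known to induce Psmb8, Psmb9 and Psmb10, whose products replace Psmb5, Psmb6 and Psmb7, in that order, in the immunoproteasome. The 19S cap (Psmc ATPases and Psmd non-ATPases) recognises and unfolds tagged proteins, whereas the 11S activator made from Psme1 and Psme2 opens the core without ubiquitin. In dendritic cells these forms supply peptides to MHC class I, and maturing dendritic cells are known to shift towards the immunoproteasome. Psmb8, Psmb9, Psmb10, Psme1 and Psme2 are called the inducible members below, and the 42 remaining tested genes the other members.

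Total counts per library ran from 8005151 to 15495249. Gata1 had 0 reads in all 4 KO libraries. In WT it had 1 and 10 reads at steady state, and 0 and 1 after LPS. At this depth its loss cannot be checked in the LPS groups, and at steady state the check rests on WT library 2. The LPS libraries of a group lay further apart than those at steady state. Across members the median SD of log2 CPM (counts scaled to library size, with TMM factors) within a group was 0.0826 (KO) and 0.162 (WT) without LPS, against 0.395 (KO) and 0.298 (WT) with it. The 10 dendritic cell markers summed to between 14985 and 23978 CPM at steady state, with none at 0 in both libraries of a group. They summed to 3791 to 7361 CPM in KO with LPS and 9636 to 12641 in WT with LPS. The 7 macrophage markers summed to 3433 to 3665 CPM in KO and 2246 to 2887 CPM in WT at steady state. With LPS they summed to 4667 to 5938 CPM in KO and 1763 to 3466 CPM in WT. Their part in the differences between groups was not tested, and in bulk RNA fewer cells of a type and less RNA per cell cannot be told apart. The 8 T and NK cell markers, which include the interferon gamma gene Ifng, summed to at most 8.38 CPM in any library.

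Per kilobase of exon, Psmb8 had the highest level of all members, at 239.9 CPM per kb averaged over the 8 libraries. The 19S subunit Psmd8 followed at 237, the catalytic subunit Psmb6 at 184, the alpha subunit Psma7 at 179.8 and the activator subunit Psme1 at 176. At the low end were the testis-type alpha subunit Psma8 at 1.58 and Psma3 at 3.88 CPM per kb. Within catalytic pairs, Psmb8 made up 81.8% to 90.8% of the summed per-kb level of Psmb8 and Psmb5 in a library. The corresponding share was 27.7% to 66.8% for Psmb9 with Psmb6 and 44.1% to 69.8% for Psmb10 with Psmb7. Thus Psmb8 RNA exceeded its constitutive partner in all 8 libraries, while the other inducible catalytic genes lay on either side of equal shares. Levels of some genes are uncertain because other loci share their sequence. At least 50% of the 50-base stretches of the main transcript also occurred in another gene for Psma5 (55.4%), Psmb3 (55.8%), Psmb5 (57.1%) and Psme2 (59.3%, all in Psme2b). For Psmb9, 12.5% of stretches lay in Tap1 on the opposite strand. For Psmb7, 28.1% lay in Nek6, which overlaps it on the opposite strand. For Psmb10, Psmd8, Psmg4 and Psme3 none lay in another gene.

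**Figure D1:**
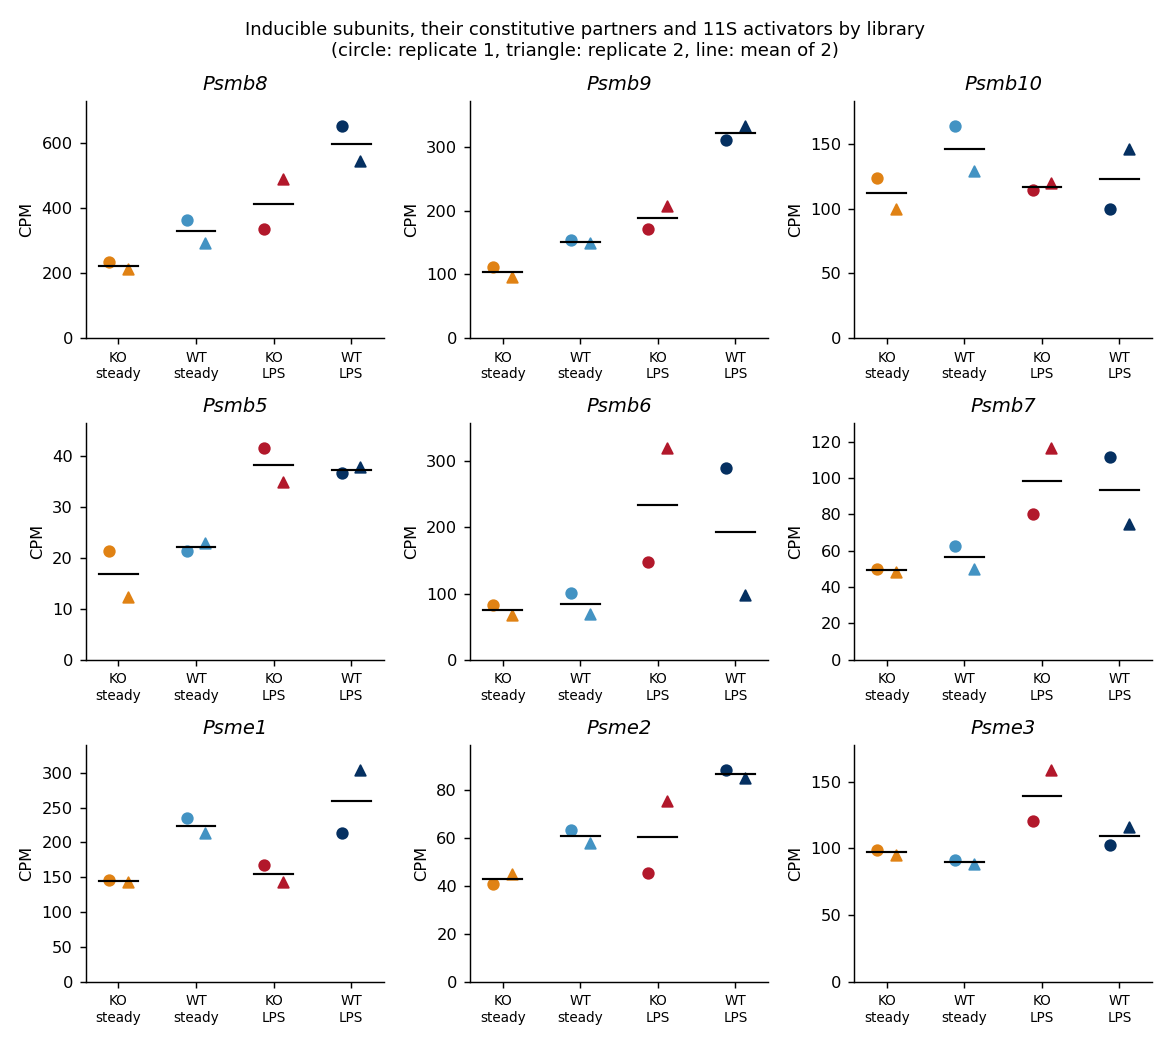
Scaled counts (CPM, linear axes from 0) of 9 proteasome genes in the 8 libraries, with replicate 1 as a circle, replicate 2 as a triangle and the mean of 2 as a line. Psmb8, Psmb9, Psme1 and Psme2 lie lower in KO than in WT under both treatments, while Psmb5, Psmb6 and Psmb7 differ mainly between steady state and LPS.

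The start regions of these genes were searched for motifs of factors known to act on them, in RefSeq windows (GRCm38.p6) from 250 bases before to 50 after the start. Windows were at hand for 40 of the 48 members. On either strand, the interferon response form, GAAA followed by any 2 bases and again GAAA, occurred in 3.44% of all 32851 windows and in 5 member genes. The NF-kB form, GGGA followed by any base and TTTCC (0.411% of windows), and TGACTCAGC (0.454%), a form of the element bound by Nfe2l1 and Nfe2l2, occurred in 0 member genes. The GAS form, TTC followed by any 3 bases and GAA, occurred in 8.3% of all windows and in 3 member genes (Psmb8, Psmd2 and Psmg1). CCAAT, which NF-Y binds, occurred in 37.4% of all windows and in 14 member genes, and it overlaps none of the matches printed here. A match, or its absence, is a description of letters in this window only. Variants of a form and sites elsewhere were not searched. The 30 bases around each match of the interferon response form are given below, with the match in capitals. They run 5′ to 3′ on the strand of the gene. Psme1 is the only inducible member among these 5 genes, as the windows of Psmb8, Psmb9, Psmb10 and Psme2 held no match. Psmg4 is the member that fell with LPS. The capitals hold that form or its reverse complement.
Psme1, chr14:55578493-55578522, + strand, 9 bases after the start: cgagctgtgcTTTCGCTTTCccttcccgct
Psmg4, chr13:34162969-34162998, + strand, 15 bases after the start: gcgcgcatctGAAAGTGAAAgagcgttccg
Psmb3, chr11:97703261-97703290, + strand, 163 bases before the start: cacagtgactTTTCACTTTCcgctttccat
Psmd4, chr3:95042675-95042704, - strand, 80 bases before the start: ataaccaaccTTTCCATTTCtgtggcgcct
Psmd9, chr5:123228021-123228050, + strand, 159 bases before the start: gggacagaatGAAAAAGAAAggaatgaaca

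With LPS, genes of the 20S core and of the 19S cap were among the members that rose. Averaged over genotypes, 16 of 47 tested members rose and 1 fell at an adjusted p under 0.05 (edgeR quasi-likelihood test, Benjamini-Hochberg adjustment over 12442 genes), where 28.6% of all genes were called, 13.8% higher and 14.8% lower. The log2 fold change was above 0 in 44 members and in 6130 of all 12442 tested genes. Its median was 0.55 over the members against -0.01 over all tested genes. In 25 members every LPS library lay above every steady-state library, which was so for 16% of all genes. Together the members took 0.303% to 0.392% of the scaled counts of a steady-state library. With LPS they took 0.443% and 0.673% in KO libraries 1 and 2, and 0.631% and 0.462% in WT libraries 1 and 2.

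The proteasome rise spanned both the constitutive and the inducible catalytic genes. Of the 7 constitutive beta subunits 3 rose, and these were the 3 catalytic ones. Psmb5, which encodes the chymotrypsin-like subunit (chr14:54614119-54618022), was at 21.4 and 12.3 CPM (KO) and 21.2 and 22.9 CPM (WT) at steady state. After LPS, Psmb5 was at 41.5 and 34.9 CPM (KO) and 36.5 and 37.7 CPM (WT). All 4 LPS libraries lay above all 4 at steady state (log2 fold change 0.96 ± 0.21 SE, edgeR adjusted p = 0.0176).

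Psmb6, the caspase-like subunit (chr11:70525367-70527858), was at 83.4 and 68.4 CPM (KO) and 101 and 68.9 CPM (WT) at steady state. After LPS, Psmb6 was at 148 and 320.0 CPM (KO) but 290.1 and 97.7 CPM (WT), so WT library 2 fell among the steady-state values. The averaged log2 fold change was 1.41 ± 0.40 (edgeR adjusted p = 0.0377). Psmb7, the trypsin-like subunit (chr2:38588036-38644087), went from 50.3 and 48.3 to 80.1 and 117 CPM in KO and from 62.8 and 49.9 to 112 and 74.9 in WT. Every LPS library was above every steady-state library (log2 fold change 0.86 ± 0.21, edgeR adjusted p = 0.0234).

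Among the inducible catalytic genes Psmb9 and Psmb8 rose and Psmb10 was not called. Psmb9 (chr17:34181987-34187764), whose product replaces Psmb6, was at 112 and 95.6 CPM (KO) and 154 and 149.6 CPM (WT) at steady state. It was at 171 and 208 CPM in KO with LPS and 311 and 333 in WT with LPS. The LPS libraries were all above those at steady state, with the lowest LPS value in KO (log2 fold change 0.98 ± 0.17, 1.97-fold, edgeR adjusted p = 0.00744).

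Psmb8 (chr17:34197721-34201454), the counterpart of Psmb5, went from 234 and 212 to 337 and 490.2 CPM in KO and from 364 and 292 to 652 and 544 in WT. Within each genotype the treatments did not overlap, but KO with LPS overlapped WT at steady state (averaged log2 fold change 0.88 ± 0.21, edgeR adjusted p = 0.0227). Psmb10 (chr8:105935735-105938444), the counterpart of Psmb7, was at 124 and 100.1 CPM (KO) and 164 and 129 CPM (WT) at steady state. After LPS, Psmb10 was at 115 and 119.7 CPM (KO) and 99.7 and 146 CPM (WT). The groups overlapped (log2 fold change -0.09 ± 0.19, edgeR adjusted p = 0.738), and the value turned to 0.020 without WT steady-state library 1 and to 0.037 without WT LPS library 1.

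None of the 4 activator genes was called in this comparison. Psme1 (chr14:55578123-55581529), the alpha subunit of the 11S ring, was at 146 and 144 CPM (KO) and 234 and 213 CPM (WT) at steady state. LPS libraries had 167 and 143 CPM (KO) and 214 and 304 CPM (WT). Its LPS values overlapped those at steady state in both genotypes (log2 fold change 0.16 ± 0.18, edgeR adjusted p = 0.534). Psme2 (chr14:55587441-55591113), the beta subunit of that ring, was at 40.7 and 44.98 CPM (KO) and 63.6 and 58.0 CPM (WT) at steady state. LPS libraries had 45.4 and 75.6 CPM (KO) and 88.5 and 85.2 CPM (WT). Within each genotype both LPS libraries were higher (averaged log2 fold change 0.51 ± 0.20, edgeR adjusted p = 0.0880), and without KO LPS library 1 it passed (0.67, adjusted p = 0.0298).

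Psme3 (chr11:101316213-101323537) encodes the nuclear 11S activator, which interferon is not known to induce. It was at 99.2 and 95.0 CPM (KO) and 91.4 and 88.3 CPM (WT) at steady state. LPS libraries had 120.4 and 159 CPM (KO) and 103 and 116 CPM (WT). All 4 LPS libraries were above the 4 at steady state, by less than the test required (log2 fold change 0.41 ± 0.16, edgeR adjusted p = 0.0961). The PA200 gene Psme4 and the inhibitor gene Psmf1 (PI31) did not pass the threshold either.

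**Figure D2:**
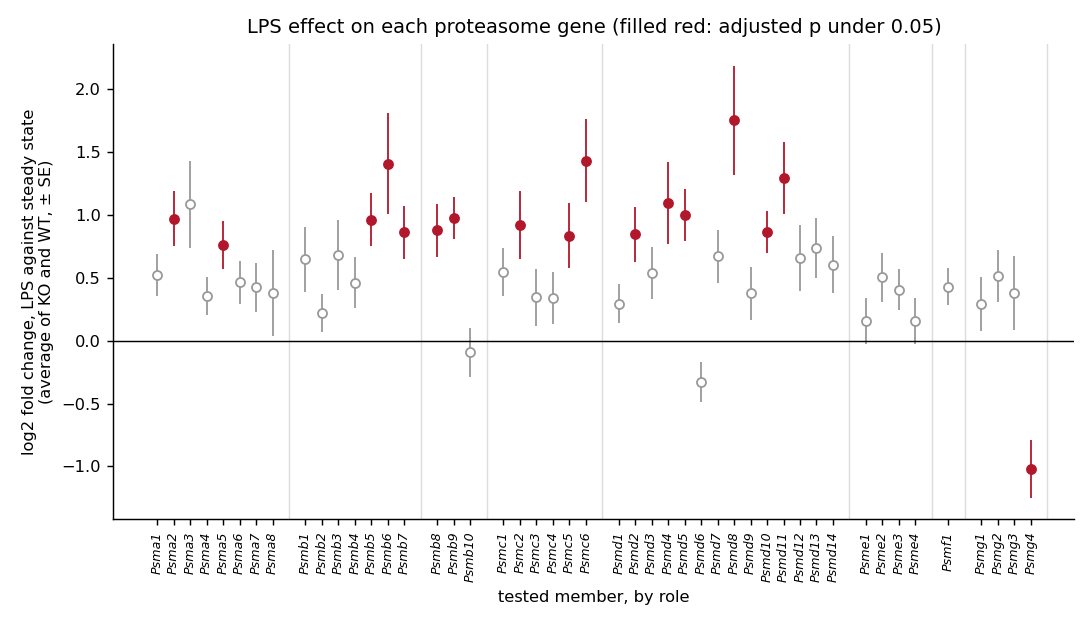
Log2 fold change of LPS against steady state, averaged over KO and WT, with its SE, for each of the 47 tested members ordered by role, from the alpha ring on the left to the assembly chaperones on the right. Filled red points passed an edgeR adjusted p of 0.05: 16 lie above 0 and 1, Psmg4, lies below.

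In the alpha ring, 2 of 8 genes rose, Psma2 (log2 fold change 0.97 ± 0.22, edgeR adjusted p = 0.0178) and Psma5 (0.76 ± 0.19, adjusted p = 0.0265). Of the 6 ATPases of the 19S base, which thread the substrate into the core, 3 rose. Psmc6 led these at 1.43 ± 0.33 (edgeR adjusted p = 0.0196), followed by Psmc2 at 0.92 and Psmc5 at 0.83. All 14 tested alpha and ATPase genes had an averaged log2 fold change above 0.

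Of 14 tested non-ATPase genes of the 19S cap, 6 rose and 0 fell. Psmd8 (chr7:29174188-29180701), a lid subunit, had the highest fold change of all members. It was at 162 and 131 CPM (KO) and 219 and 150.5 CPM (WT) at steady state. With LPS it reached 407 and 939 CPM (KO) and 698 and 218 CPM (WT). The WT LPS library 2 thus lay within the steady-state values (log2 fold change 1.75 ± 0.43, 3.37-fold, edgeR adjusted p = 0.0248). The lid subunit Psmd11 rose by 1.30 ± 0.29 (edgeR adjusted p = 0.0172) and the ubiquitin receptor Psmd4 by 1.10 ± 0.32 (adjusted p = 0.0417). Of the assembly chaperones of the base, those that rose were Psmd5 (edgeR adjusted p = 0.0142) and Psmd10 (gankyrin, log2 fold change 0.87 ± 0.17, adjusted p = 0.0111). Psmd2, a scaffold of the base, rose by 0.84 ± 0.22 (edgeR adjusted p = 0.0280). The lid subunit Psmd6 was the exception in sign, at -0.33 ± 0.16 (edgeR adjusted p = 0.156), with 51.1 to 59.9 CPM at steady state and 32.9 to 51.3 with LPS.

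The RefSeq bases before the starts of Psmd8 and Psmb6, which had the highest averaged log2 fold changes of the 19S and 20S genes among those that passed, are printed below, 5′ to 3′ on the strand of the gene and ending where the annotated exon begins or at the start. They held none of the motifs named above.
Psmd8, chr7:29180702-29180923, - strand: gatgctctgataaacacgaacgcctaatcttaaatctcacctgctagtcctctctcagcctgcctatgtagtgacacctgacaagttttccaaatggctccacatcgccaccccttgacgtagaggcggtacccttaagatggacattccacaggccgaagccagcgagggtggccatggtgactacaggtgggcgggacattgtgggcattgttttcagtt
Psmb6, chr11:70525107-70525356, + strand: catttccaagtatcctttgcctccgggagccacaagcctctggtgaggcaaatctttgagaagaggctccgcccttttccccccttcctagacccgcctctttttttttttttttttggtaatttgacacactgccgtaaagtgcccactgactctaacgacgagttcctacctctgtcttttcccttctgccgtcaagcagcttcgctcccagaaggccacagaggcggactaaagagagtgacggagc

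Psmg4, one of the chaperones that assemble the alpha ring, moved the other way. It was at 21.7 and 20.01 CPM (KO) and 38.5 and 33.98 CPM (WT) at steady state, and fell to 8.36 and 7.20 CPM in KO with LPS and 16.9 and 30.1 in WT with LPS. In each genotype both LPS libraries lay below both at steady state (averaged log2 fold change -1.02 ± 0.23, edgeR adjusted p = 0.0179). The 3 other chaperones of this family did not pass, at 0.29 to 0.51 on the log2 scale. The interferon response form printed above lies 15 bases after the Psmg4 start, on the strand of the gene. The form also occurs before the start of Psmd4, which rose, and its part in either change was not tested.

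The count of 17 called members depended on single libraries, as did the count over all tested genes. Both counts rose without WT LPS library 2. Both fell without KO LPS library 2, without WT LPS library 1 and without any 1 of the steady-state libraries. Without KO LPS library 1 the member count rose while the count over all genes hardly changed. The folds moved as well: the log2 fold change of Psmb6 was 0.92 without WT LPS library 1, and that of Psmc5 was 0.52 without KO LPS library 2. A fit with a library left out has fewer residual degrees of freedom.

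**Figure D3:**
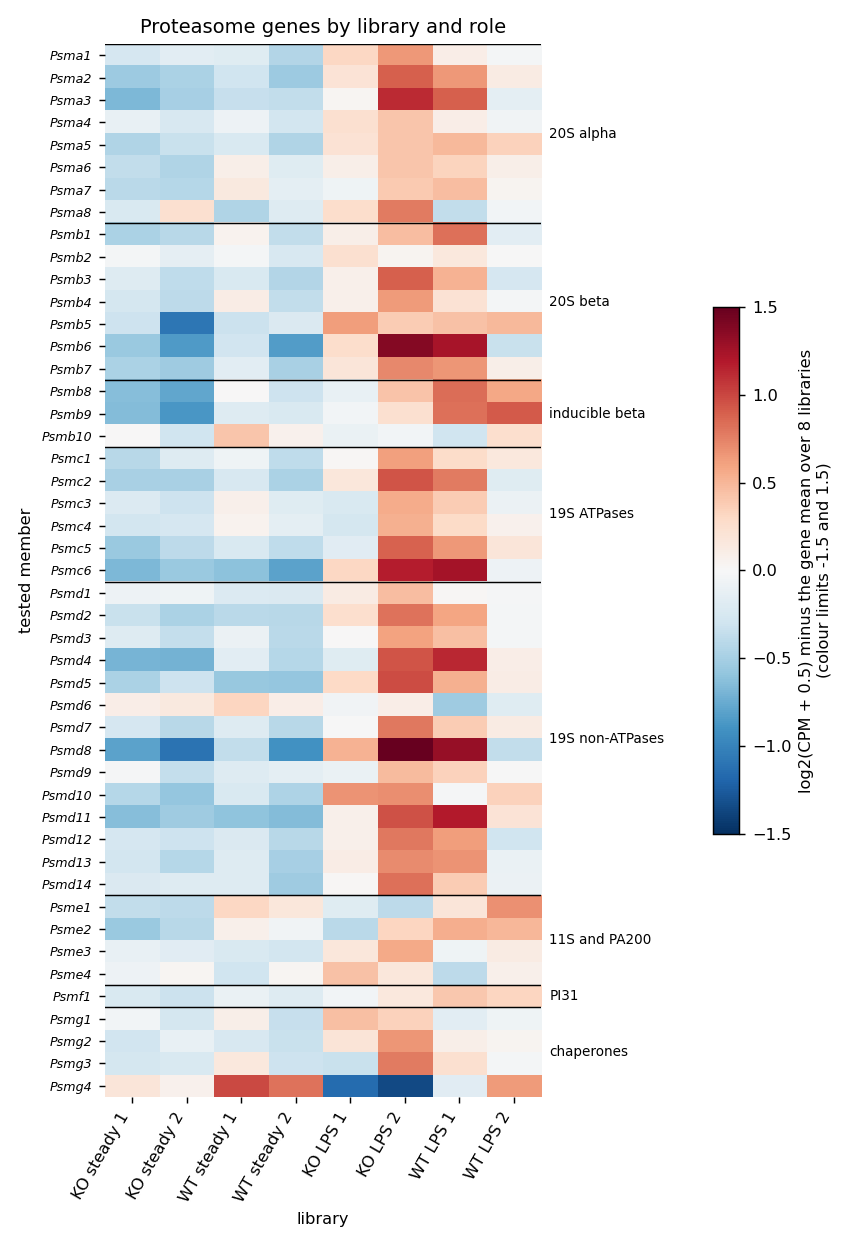
Log2(CPM + 0.5) of the 47 tested members in the 8 libraries (columns), each minus the mean of the gene over the libraries, with genes in rows grouped by role and colour limits of -1.5 and 1.5. Most rows are blue in the 4 steady-state columns and red with LPS, most deeply in KO LPS library 2 and WT LPS library 1, and Psmg4 runs the other way.

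The LPS libraries did not carry the rise evenly. Relative to the steady-state mean of its genotype, the median of the 42 other members was 0.41 log2 units higher in KO LPS library 1 and 0.94 higher in library 2. It was 0.62 higher in WT LPS library 1 and 0.24 higher in library 2. KO LPS library 2 and WT LPS library 1 both exceeded KO LPS library 1 and WT LPS library 2 in 28 of the 42, against 25.3% of all tested genes. They did so in 5 of the 7 constitutive beta genes and in 0 of the 5 inducible members, a contrast that was not tested. A gene with both KO values below both WT values fails this count, whatever the order of libraries within a genotype. Within KO, LPS library 2 exceeded library 1 in 37 of the 42 and in 4 of the 5 inducible members. Within WT, LPS library 1 exceeded library 2 in 34 of the 42 and in 2 of the 5. For the inducible members the corresponding medians were 0.21, 0.81, 0.54 and 0.49. KO LPS library 2 and WT LPS library 1 also had the lowest TMM factors of all libraries, 0.816 and 0.891. Their total counts were the lowest too, at 8005151 and 8488443. What separates the libraries was not tested.

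**Figure D4:**
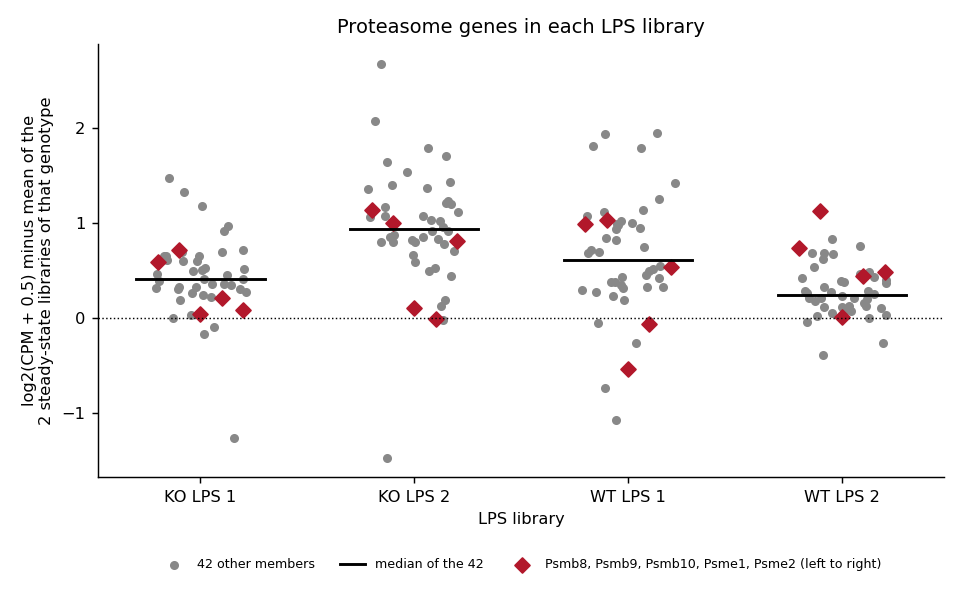
Log2(CPM + 0.5) of each tested member in each LPS library minus the mean of the 2 steady-state libraries of the same genotype, with the 42 other members in grey (scattered sideways for legibility), their median as a black line and the 5 inducible members as red diamonds. The medians are 0.41, 0.94, 0.62 and 0.24 from left to right, and Psmb10, the middle diamond, stays near or below 0.

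Within single genotypes few members passed. In KO, 2 members rose with LPS and 1 fell, where 11.8% of all genes were called, 5.3% higher and 6.46% lower. These were Psmd10 (log2 fold change 1.21 ± 0.24, edgeR adjusted p = 0.0229), Psmb5 (1.18 ± 0.31, adjusted p = 0.0487) and Psmg4 (-1.42 ± 0.33, adjusted p = 0.0369). Both KO LPS libraries were above both KO steady-state libraries in 39 of 47 members, against 34.4% of all genes, and below both in 1 member, against 38.2%. Each of these calls was lost without any 1 of 6 libraries. Without either WT LPS library more members were called, as were more genes in all. Without any 1 of the 2 KO steady-state, 2 WT steady-state or KO LPS 2 libraries, fewer members and fewer genes in all were called.

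In WT, the 1 called member was Psmb9, which rose by 1.09 ± 0.24 (edgeR adjusted p = 0.0422), where 6.49% of all genes were called, 3% higher and 3.49% lower. Both WT LPS libraries were above both WT steady-state libraries in 30 of 47 members, against 27.5% of all genes, and below both in 2 members, against 29.1%. Psmb9 kept its call without KO LPS library 2 or WT LPS library 2 but not without any 1 of the 6 remaining libraries (log2 fold changes of 1.04 to 1.14 over the 8). Without WT LPS library 2 more members were called, as were more genes in all. Psmb8 gave 0.89 ± 0.30 in KO and 0.86 ± 0.30 in WT (edgeR adjusted p = 0.0929 and 0.125).

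The difference between these LPS effects was itself tested. No member passed the interaction of genotype and LPS by edgeR, as with 0% of all genes, and 0 members had an unadjusted p under 0.05. DESeq2 called 0 members as well. The log2 difference of effects (KO minus WT) was above 0 in 39 of 47 members and in 6162 of all 12442 genes. This difference had a median of 0.24 over the members against -0.01 over all genes. It ran from -0.80 for Psmg4 to 0.89 for Psmd8. Among the inducible members it ran from -0.22 for Psmb9 to 0.32 for Psmb10. Members moved together by library, with medians of the 42 other members at 0.41 and 0.94 in KO LPS libraries and 0.62 and 0.24 in WT. The count of signs was therefore not tested and can rest on single libraries.

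The comparison of genotypes asked whether these genes differ without Gata1, and it uses the same libraries as the LPS comparisons above. At steady state 0 members were called by edgeR, as were 0% of all genes, while 2 members (Psme1 and Psmg4) and 327 genes in all had an unadjusted p under 0.05. DESeq2 called 0 members and 27 genes. In all 5 inducible members both KO libraries lay below both WT libraries, as they did in 16 of all 47 tested members and in 23.4% of all genes. Both KO libraries were higher in 3 members, against 22.1% of genes. The log2 differences (KO minus WT) were -0.56 ± 0.30 for Psmb8, -0.55 ± 0.24 for Psmb9, -0.39 ± 0.28 for Psmb10, -0.63 ± 0.26 for Psme1 and -0.50 ± 0.28 for Psme2. Each had an edgeR adjusted p of 1. The spread behind these SEs and p-values was estimated for each gene over all 4 groups. It thus includes that of the LPS libraries, which was wider across members. Over the 42 other members the median difference was -0.07, and over all genes -0.01. The 6 neutrophil markers in the table summed to 4.52 to 6.20 CPM in KO and 23.4 to 193 CPM in WT at steady state. The 6 mast cell and basophil markers summed to 28.5 to 42.3 CPM in KO and 36.6 to 133 CPM in WT. The 7 macrophage markers went the other way, at 3433 to 3665 CPM in KO and 2246 to 2887 CPM in WT. The part of these cells in the differences was not tested.

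With LPS, 0 members were called between genotypes by edgeR, where 0.772% of all genes were, and 3 members (Psmb9, Psme1 and Psmg4) had an unadjusted p under 0.05. DESeq2 called 2 members lower in KO, Psmb9 and Psmg4, and 1044 genes in all. The inducible members again lay lower in KO with the exception of Psmb10. Both KO libraries were below both WT libraries in 4 of these 5 and in 6 of all 47 members, against 18.1% of all genes, and above them in 10 members, against 18% of genes. The log2 differences were -0.53 ± 0.30 for Psmb8, -0.77 ± 0.24 for Psmb9, -0.74 ± 0.26 for Psme1 and -0.52 ± 0.28 for Psme2 (edgeR adjusted p = 0.428, 0.160, 0.213 and 0.399). Psmb10 differed by -0.07 ± 0.28, and by 0.24 without WT LPS library 2. The median over the 42 other members had the opposite sign, at 0.20, and that over all genes was -0.01. Psmg4 had the lowest value among members in both comparisons, -0.80 ± 0.32 at steady state and -1.60 ± 0.33 with LPS (edgeR adjusted p = 1 and 0.0797). With LPS it was called without the filter (-1.62, adjusted p = 0.0287) and without WT LPS library 1 (-1.95, adjusted p = 0.0154).

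Each inducible gene was also set against its constitutive counterpart within a library, as a ratio of CPM + 0.5. The log2 ratio of Psmb10 to Psmb7 was 1.29 and 1.04 in KO and 1.38 and 1.36 in WT at steady state. With LPS it was 0.51 and 0.04 in KO, and -0.16 and 0.96 in WT. Every LPS library lay below every steady-state library, with a mean difference of -0.93. The exact two-sided permutation p of 4 libraries against 4 was 0.0286, the smallest this design can give, and 0.0952 after Benjamini-Hochberg adjustment over 10 ratio tests. Psmb8 to Psmb5 differed by -0.10 and Psmb9 to Psmb6 by -0.29 between LPS and steady state (exact permutation p = 0.743 and 0.629), with overlapping libraries.

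Between genotypes, the activator ratios stood apart. Against Psme3, the log2 ratio of Psme1 was 0.55 and 0.59 in KO at steady state and 0.47 and -0.15 in KO with LPS. The WT values were 1.35 and 1.27 without LPS and 1.05 and 1.38 with it. All 4 KO libraries lay below all 4 WT libraries, by -0.90 on average. Under each treatment Psme3 itself was higher in both KO libraries than in both WT libraries. The ratios to Psme3 therefore do not measure Psme1 and Psme2 alone.

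The log2 ratio of Psme2 to Psme3 was -1.27 and -1.07 in KO at steady state and -1.40 and -1.07 with LPS. In WT it was -0.52 and -0.60, and -0.21 and -0.45. Again all KO libraries were below all WT libraries, by -0.76. Each of these 2 ratios had an exact permutation p of 0.0286 and an adjusted p of 0.0952, so neither passed after adjustment. The ratios of Psmb8 to Psmb5 (-0.35), Psmb9 to Psmb6 (-0.78) and Psmb10 to Psmb7 (-0.16) overlapped between genotypes (exact permutation p = 0.200, 0.143 and 0.743).

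**Figure D5:**
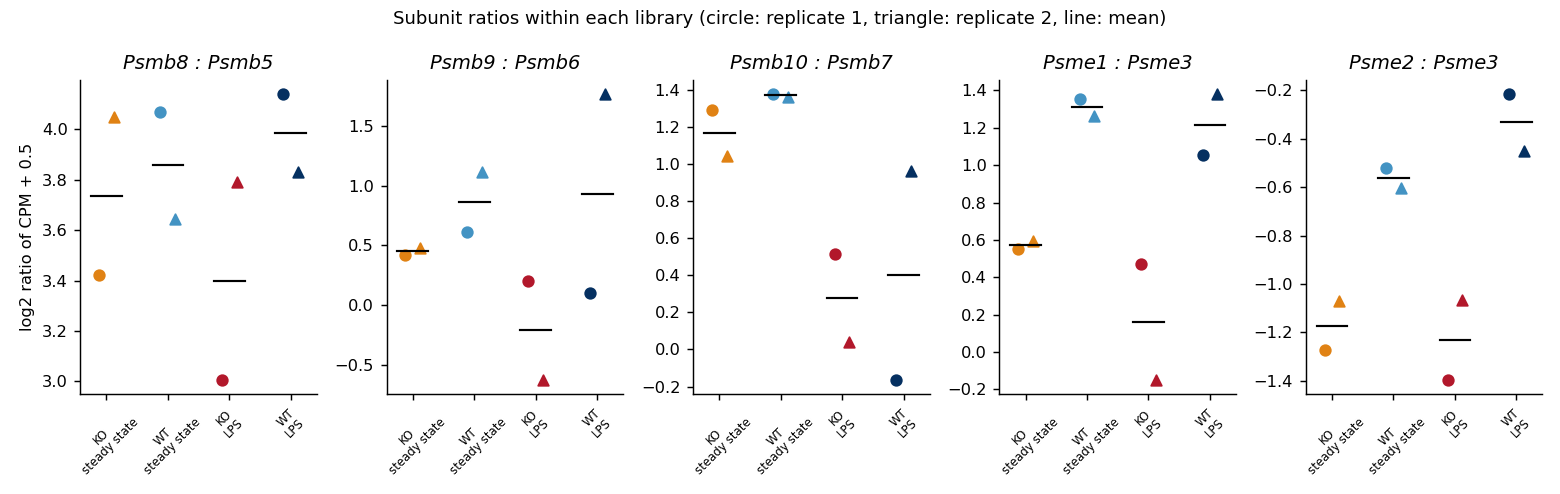
Log2 ratio of CPM + 0.5 of each inducible gene to its counterpart in the 8 libraries (circle for replicate 1, triangle for replicate 2, line for the mean of 2), with a separate vertical axis for each pair. Psmb10 to Psmb7 is above 1 in all steady-state libraries and below 1 with LPS, and Psme1 and Psme2 to Psme3 are lower in all KO libraries.

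Genes that act beside the proteasome were counted in the same averaged LPS comparison, where 13.8% of all genes were called higher and 14.8% lower. Of 19 tested partners outside the member rule, 3 rose and 0 fell, with Txnl1, a thioredoxin-like protein bound to the 19S cap, at 1.18 ± 0.31 (edgeR adjusted p = 0.0290), together with the ubiquitin adaptors Ubqln1 and Nploc4. Pomp, the chaperone that matures the core, gave 0.65 ± 0.25 (edgeR adjusted p = 0.0885). Of 15 tested genes that carry class I peptides onward, 5 rose and 1 fell.

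Tap1, which pumps proteasome products into the endoplasmic reticulum, is the neighbour of Psmb9 and is transcribed away from it, with 225 bases between their RefSeq starts on chromosome 17. It was at 132 and 117 CPM (KO) and 175 and 166 CPM (WT) at steady state. LPS libraries had 456 and 456 CPM (KO) and 539 and 570.0 CPM (WT), above all steady-state libraries (log2 fold change 1.79 ± 0.17, edgeR adjusted p = 0.000964). The library kit does not mark strand, so reads in the part that Psmb9 shares with Tap1 cannot be told apart, and its part in the Psmb9 values was not tested. The same holds for Psmb7 and Nek6. B2m, the class I light chain, rose by 2.14 ± 0.32 (edgeR adjusted p = 0.00450), and Tap2, the partner of Tap1, by 0.89 ± 0.17 (adjusted p = 0.0112).

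Of 13 tested transcription regulators of proteasome genes, 3 rose, Stat2 and Irf9 of the interferon pathway among them, and 1 fell (Ngly1). Ngly1, an enzyme needed to activate the proteasome factor Nfe2l1, fell by 1.03 on the log2 scale (edgeR adjusted p = 0.0283). Irf1, an activator of Psmb8, Psmb9 and Tap1, was at 256 and 254 CPM (KO) and 267 and 326 CPM (WT) at steady state. With LPS it was at 189 and 90.3 CPM (KO) and 143 and 381 CPM (WT), overlapping those at steady state (log2 fold change -0.52 ± 0.36, edgeR adjusted p = 0.292). Without WT LPS library 2 its value was -0.96 (adjusted p = 0.0300).

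The class I regulator Nlrc5 ranged from 58.6 to 79.3 CPM at steady state and 50.1 to 144 with LPS. Nfe2l1 ranged from 419 to 619 and 260.3 to 550.0 CPM, and its protease Ddi2 from 27.7 to 45.5 and 27.1 to 41.0, none of the 3 called in that comparison. Among 14 tested ubiquitin and ubiquitin-like genes 4 rose and 0 fell. The ubiquitin-like modifier Isg15 rose by 5.75 ± 0.38 (edgeR adjusted p = 0.000357) and its protease Usp18 by 2.44 ± 0.21 (adjusted p = 0.000674). Ubd (FAT10), a modifier that targets proteins to the proteasome directly, was at most 0.661 CPM in any library and was not tested.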

How the data were processed

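RNA-seq libraries were made with the RNeasy plus and TruSeq RNA v2 kits, per the labels' protocols. The authors deposited whole-number read counts per gene. Build mm10 and the tools featureCounts, edgeR 3.6.8, TopHat2 2.0.8 and Subread 1.4.3 are listed, without roles, per the submitters' processing notes. The treatment of reads that match several genes is not stated.

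Groups came from the sample titles. Counts were fitted in R 4.3.3 with edgeR 4.0.16: filterByExpr defaults (minimum count 10, minimum total 15), TMM factors, 1 coefficient per group over 8 libraries, the quasi-likelihood F test (two-sided) and Benjamini-Hochberg adjustment over 12442 genes, in 6 comparisons. Residual degrees of freedom were 4, prior ones 3.40, and the common biological coefficient of variation was 0.340. Spread was estimated for each gene over all 4 groups together, so SEs at steady state and with LPS share it. Depth and the 2 libraries per group both limit precision. SEs were taken as the absolute log2 fold change over the root of F. The procedure was run on simulated counts with the same spread per gene in all groups. The unequal spread of steady-state and LPS libraries was therefore not simulated. Ratios used log2(CPM + 0.5) and exact permutation tests. Coordinates and lengths are from GENCODE M21 (GRCm38), matched by symbol, and start windows from RefSeq (GRCm38.p6). Sequence sharing was counted as 50-base stretches of the principal transcript found in transcripts of another gene.

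The members, lists and tests were chosen with earlier results of these data known. Values in every library are given for the 5 inducible members, Psmb5, Psmb6, Psmb7 and Psme3. Other members are given fold changes if called or among the 3 highest or 3 lowest folds of a comparison. Members at the ends of the range of levels per kb (Psma3, Psma7, Psma8) were named after their values were seen. From the lists, called genes (up to 4 per list and comparison), Pomp, Irf1, Nlrc5, Nfe2l1, Ddi2, Tap1 and Ubd are named. A few items that this rule covers are not reported here. Alternatives were RLE factors, no filter, DESeq2 1.42.0, the replicate number as a block, only the groups compared, each library left out and, for ratios, a pseudocount of 5. A block with crossed numbers was added after seeing the data. Same-numbered libraries correlated between groups at -0.599 to 0.260, so the numbers were not taken to pair them.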

Additional observations from a re-analysis of the deposited data

How the results depend on the processing

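RLE factors, which moved the median of all genes by at most 0.0138 log2 units, changed no count of called members by over 1.5 times. For LPS in KO, 3 called members became 9 with no filter, 14 with DESeq2, 5 with only the groups compared, 0 with the replicate block and 0 to 14 with a library left out, while calls over all genes went from 1463 to 2223, 2795, 2316, 776 and 143 to 3345. For LPS in WT, 1 became 3, 4, 0, 0 and 0 to 14 in that order, and 807 calls became 1497, 1965, 229, 465 and 70 to 3629. Averaged over genotypes, 17 became 11 with the replicate block and 0 to 28 with a library left out, and 3555 calls became 1305 to 6275 with a library left out. Between genotypes with LPS, 0 became 1 with no filter, 2 with DESeq2 and 0 to 1 with a library left out, and 96 calls became 538 with no filter, 1044 with DESeq2, 0 with only the groups compared, 8 with the replicate block and 1 to 826 with a library left out. At steady state the 0 calls over all genes became 9 with no filter, 27 with DESeq2, 1 with only the groups compared and 0 to 1 with a library left out, and in the interaction 3 and 110 with no filter and DESeq2. The replicate number showed no pairing, and KO and WT LPS libraries with the same number moved oppositely. With the KO LPS numbers crossed in the block, a choice made after seeing the data, 13, 2 and 24 members and 2484, 1285 and 4493 genes in all were called for LPS in KO, in WT and averaged.

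The causes of these changes were not tested. Fits with fewer libraries or a block have fewer residual degrees of freedom. With a library left out, Psmb10 ran from -0.33 to 0.24 between genotypes with LPS and from -0.24 to 0.037 for LPS averaged over genotypes. For LPS, the ratio of Psmb8 to Psmb5 turned to 0.031 with a pseudocount of 5. Leaving out 1 library gave ranges of -0.25 to 0.12 for Psmb8 to Psmb5, -0.76 to 0.034 for Psmb9 to Psmb6, -0.48 to 0.027 for Psme1 to Psme3 and -0.10 to 0.29 for Psme2 to Psme3. Between genotypes it gave -0.51 to 0.066 for Psmb10 to Psmb7.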
